A study of Mus musculus with 7 samples.

Results

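The genes described here build and finish the fibrous collagen of connective tissue, followed in mouse uterus over the first 24 h after a single dose of dihydrotestosterone (DHT), a potent androgen that aromatase cannot turn into an estrogen. They are the fibrillar collagen genes Col1a1, Col1a2, Col3a1, Col5a1 and Col5a2, the type VI collagen genes Col6a1, Col6a2 and Col6a3, the cross-linking enzyme gene Lox and the collagen chaperone gene Serpinh1. They were taken by gene symbol, and all 10 were among the 8251 genes that a probe set of the array names on its own. Together they had 17 probe sets, 6 genes with several and 4 with 1. All 17 passed the filter on low signals, which asks for a signal over the floor, 145.9, on at least 1 array.

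The study had 7 groups with 1 Affymetrix U74Av2 array each, so no group had replicates. All animals were C57BL/6 females, labelled as 10 to 11 weeks old, whose ovaries had been removed 7 days before death, so every group, vehicle included, lacked ovarian hormones. The DHT groups received 0.1 mg per mouse under the skin and were killed 1, 3, 6, 12, 18 or 24 h later, and the vehicle group was killed 24 h after its injection. The RNA of each array came from whole uteri pooled before extraction, and 10 mice are named without saying how many went into a pool. Only the 24 h DHT array therefore has a vehicle array killed at the same interval after injection. At earlier times an effect of DHT and one of the injection or the hour of the day cannot be told apart. In whole uterus, fewer cells of a type and less RNA per cell cannot be told apart either.

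Collagen molecules are made of alpha chains wound around each other. Type I collagen, with chains from Col1a1 and Col1a2, and type III, from Col3a1, form the bulk of tissue fibrils, while type V, from Col5a1 and Col5a2, lies inside them and helps them start and keeps them thin. Type VI, from Col6a1, Col6a2 and Col6a3, forms beaded filaments that link cells to the fibrils. The protein of Serpinh1, HSP47, holds newly wound procollagen in the endoplasmic reticulum (ER), and the oxidase encoded by Lox cross-links fibrils outside the cell. In the uterus these fibrils fill the stroma under the epithelium and lie between the smooth muscle bundles.

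Promoter sequences are shown for the fibrillar gene whose signal was higher on each array than on the one before it (Col1a2), for the fibrillar gene with the lowest p against vehicle (Col3a1) and for the chaperone (Serpinh1). They are the 250 bases ahead of the annotated start, from RefSeq on build GRCm38.p6, at chr6:4505368-4505617 on the plus strand, chr1:45311288-45311537 on the plus strand and chr7:99353240-99353489 on the minus strand. Capitals mark matches to any of 4 motifs on either strand: CCAAT, bound by NF-Y, GGGCGG, bound by Sp1, TGTTCT, the core hexamer of androgen and glucocorticoid receptor sites, and GAANNTTC, of heat shock elements.
Col1a2: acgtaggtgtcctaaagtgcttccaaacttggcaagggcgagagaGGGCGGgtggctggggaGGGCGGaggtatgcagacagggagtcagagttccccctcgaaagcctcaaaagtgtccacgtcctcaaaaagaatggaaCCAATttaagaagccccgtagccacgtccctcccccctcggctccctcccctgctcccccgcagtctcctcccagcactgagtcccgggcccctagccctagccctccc
Col3a1: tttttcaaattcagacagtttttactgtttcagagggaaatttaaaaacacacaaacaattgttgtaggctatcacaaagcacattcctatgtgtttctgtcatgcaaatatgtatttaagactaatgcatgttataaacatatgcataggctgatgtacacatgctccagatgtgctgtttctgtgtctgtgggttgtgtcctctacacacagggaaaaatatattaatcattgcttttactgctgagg
Serpinh1: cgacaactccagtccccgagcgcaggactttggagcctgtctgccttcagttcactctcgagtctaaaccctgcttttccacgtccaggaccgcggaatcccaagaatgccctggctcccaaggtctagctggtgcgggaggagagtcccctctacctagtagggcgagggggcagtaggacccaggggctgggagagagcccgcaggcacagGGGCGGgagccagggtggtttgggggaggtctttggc

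The sequence table held 8 promoter windows for 7 of the 10 genes, and Col1a1, Col5a2 and Lox were not matched. Each window was searched over its 250 bases ahead of the start and 50 bases after it. CCAAT was found in the window of Col1a2 alone, at 109 bases ahead of the start and again, as its reverse complement, at base 1, against 37.4% of all 32851 promoter windows. GGGCGG was found in 5 of the 8 windows, of Col1a2, Col5a1, Col6a2 and Serpinh1, against 35.7% of all windows. In Serpinh1 it lay 37 bases ahead of the start, and in Col1a2 at 205 and 188 bases. TGTTCT was in none of the 8 (19.0% of all windows), and GAANNTTC in none of the 8 (7.86% of all windows). The matches of different motifs did not overlap in the 3 sequences shown, and a match is a string of letters, not a measured binding site.

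On the arrays, the collagen genes and Serpinh1 lay near vehicle at 1 and 3 h, above it at 6 h in most cases, and, apart from Col5a1, highest at 12 h or later. Of the 10 genes, each represented by its brightest probe set, 3 were above vehicle on the 1 h array, 8 on each of the 3 and 6 h arrays, all 10 on the 12 h array, and 9 on each of the 18 and 24 h arrays. Their median log2 ratio to vehicle was -0.04, 0.16, 0.44, 0.75, 0.75 and 0.75 from 1 to 24 h, while the median of all 6326 genes above the filter was 0.00 at every time, with 45.7% to 48.2% of them above vehicle. The largest steps between neighbouring arrays were from 3 to 6 h and from 6 to 12 h, with medians of 0.37 and 0.36 on the log2 scale, and 9 of 10 genes higher at the later time in each. From 12 to 18 h the median step was -0.04. The highest of the 7 signals was on the 12 h array for 5 genes, on the 24 h array for 3, and on the 6 h and 18 h arrays for 1 each. Lox was the exception, below vehicle on 4 of the 6 DHT arrays.

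**Figure D1:**
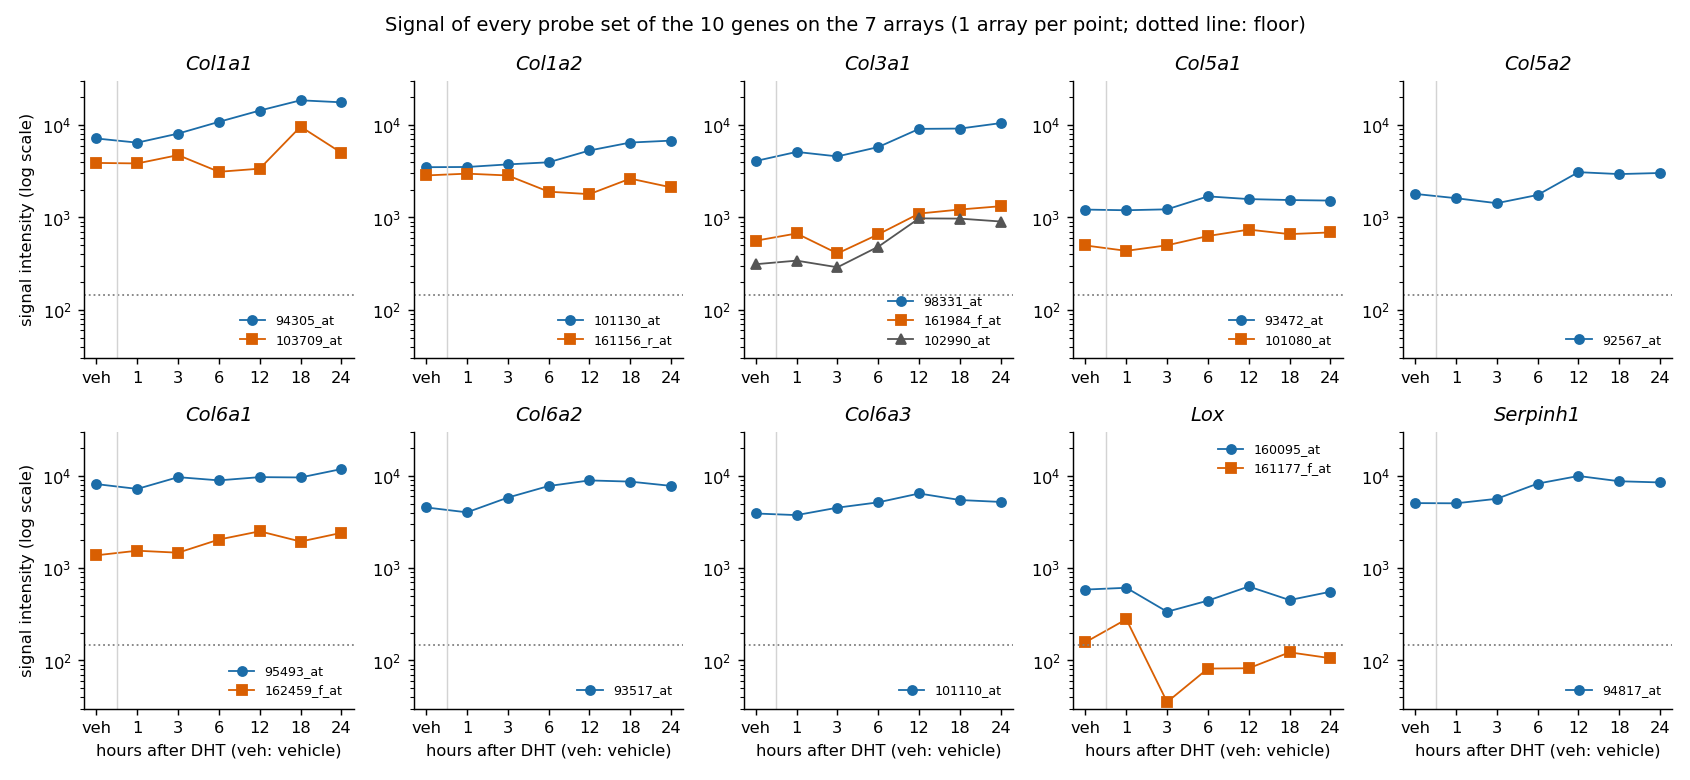
Signal intensity (log scale) of all 17 probe sets of the 10 genes on the 7 arrays, with vehicle at the left and the hours after DHT spaced evenly. Each point is 1 array and each line 1 probe set. The dotted line is the floor at 145.9, which only the second Lox probe set crosses.

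Among the brightest probe sets, that of Col1a1 had the widest range, 1.52 on the log2 scale. It (94305_at) read 7164 on vehicle and 6459, 8092, 10847, 14379, 18558 and 17650 at 1, 3, 6, 12, 18 and 24 h. All late arrays lay above all early ones, and the level at 18 h was 2.59-fold that of vehicle. Averaged on the log2 scale over the late arrays (12, 18 and 24 h), Col1a1 was 1.23 ± 0.30 (SE) above vehicle and 1.02 ± 0.22 above the early arrays (1, 3 and 6 h). The other Col1a1 probe set (103709_at) had another course. It read 3896 on vehicle and 3847, 4734, 3122, 3377, 9632 and 5017 at the 6 times, so only its 18 h value stood well apart, at 2.47-fold vehicle. Its late difference from vehicle was 0.49, and 0.08 without the 18 h array.

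Col1a2 (101130_at), which encodes the other chain of type I collagen, had signals of 3502 on vehicle and 3521, 3754, 3957, 5312, 6473 and 6792 from 1 to 24 h, each above the one before it. Among the 8421 probe sets it had the second lowest p for a linear trend over the hours after DHT (0.27 ± 0.03 log2 units per 6 h, rank 2). Its second probe set (161156_r_at) ran the other way: it read 2852 on vehicle and 2981, 2850, 1903, 1789, 2635 and 2120 at the 6 times. That probe set carries the maker's suffix for probes chosen with the design rules dropped. It was below vehicle on all 3 late arrays, by 0.40 on average on the log2 scale.

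Col3a1 was measured by 3 probe sets, all at their highest levels from 12 h on. The brightest (98331_at) had 4089 on vehicle and 5126, 4582, 5786, 9104, 9173 and 10513 from 1 to 24 h, and at 24 h it stood 2.57-fold above vehicle. The second (161984_f_at) read 561 on vehicle and 671, 408, 657, 1103, 1220 and 1324, and the third (102990_at) 312 on vehicle and 341, 289, 483, 978, 972 and 904. On each of the 3 probe sets every late array lay above every early array and above vehicle. The late minus vehicle differences were 1.23 ± 0.16, 1.11 ± 0.31 and 1.61 ± 0.29 on the log2 scale. The third probe set was level from 12 h on, with folds of 3.13, 3.12 and 2.90 over vehicle.

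The type V chains differed less from vehicle on the late arrays than the brightest probe sets of Col1a1 and Col3a1, and the pair of genes differed in timing. Col5a2 (92567_at) read 1800 on vehicle and 1617, 1428, 1753, 3095, 2950 and 3032 from 1 to 24 h: all early arrays were below vehicle and all late ones above it. Its step from 6 to 12 h, 0.82 on the log2 scale, was the largest at that interval among the brightest probe sets of the 10 genes. The third Col3a1 probe set had a larger step there, 1.02. Late against early, Col5a2 ranked 3 of 8421 by p, at 0.92 ± 0.09. Col5a1 read 1218 on vehicle and 1197, 1225, 1692, 1582, 1545 and 1524 on its brighter probe set (93472_at), so its highest value came at 6 h and late and early arrays overlapped. Its other probe set (101080_at) read 498 on vehicle and 435, 500, 630, 739, 661 and 689, with the highest value at 12 h. The 2 Col5a1 probe sets had the same sign against vehicle at all 6 times and were never more than 0.19 apart.

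**Figure D2:**
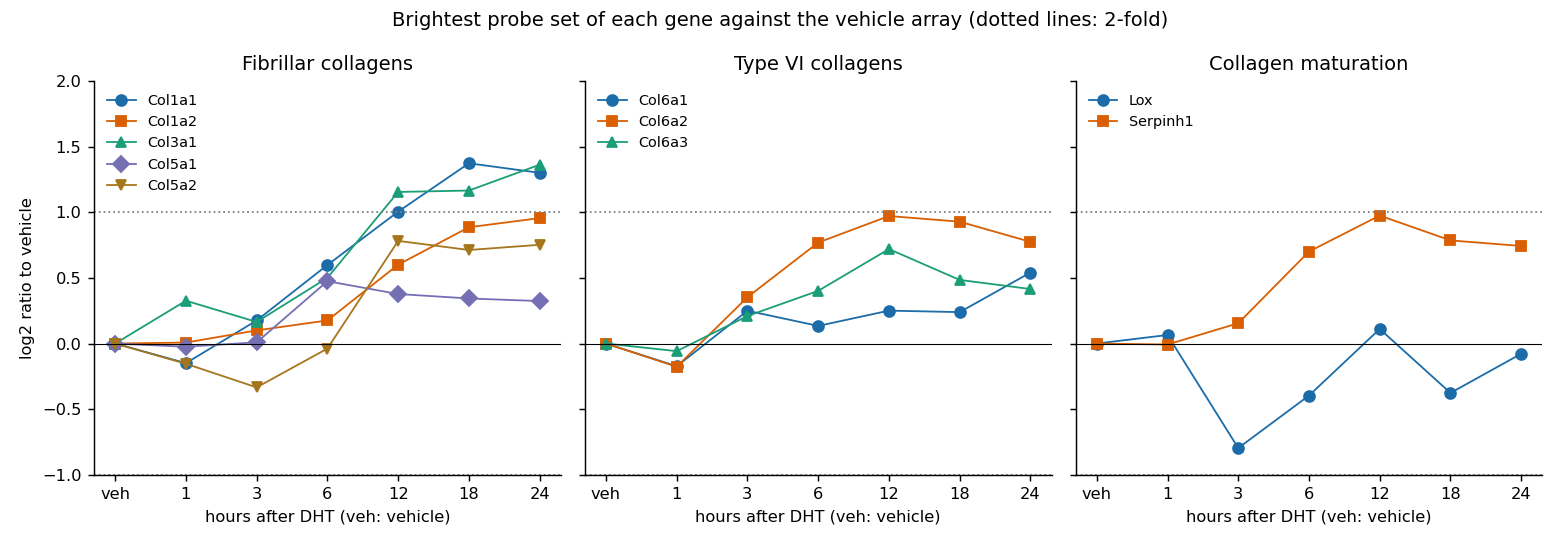
Log2 ratio to the vehicle array of the brightest probe set of each gene, for fibrillar collagens, type VI collagens, and the maturation genes Lox and Serpinh1. Each point is 1 array with no replicate, times are spaced evenly, and the dotted lines mark 2-fold. Col1a1 and Col3a1 lie above the 2-fold line from 12 h on, and Lox lies between -0.80 and 0.11.

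The type VI chains were above vehicle from 3 h on, all 3 genes at each of those 5 times. Their median log2 ratios were 0.25, 0.40, 0.72, 0.48 and 0.54 from 3 to 24 h, against 0.10, 0.47, 0.78, 0.89 and 0.96 for the 5 fibrillar genes; this difference between the families was not tested. Col6a2 (93517_at) read 4539 on vehicle and 4016, 5800, 7737, 8902, 8640 and 7766 from 1 to 24 h, close to 2-fold above vehicle at 12 h (1.96-fold). Col6a3 (101110_at) read 3902 on vehicle and 3749, 4513, 5154, 6426, 5460 and 5205, also with its peak at 12 h. On both genes the late arrays lay above all others, by a small margin. Col6a1, whose brighter probe set (95493_at) had the narrowest span of the family, read 8119 on vehicle and 7202, 9654, 8911, 9660, 9584 and 11811, with late and early arrays overlapping. The dimmer Col6a1 probe set (162459_f_at) read 1377 on vehicle and 1543, 1469, 2039, 2505, 1939 and 2408, and its late difference from vehicle was 0.72 ± 0.23, against 0.34 ± 0.21 for the brighter one.

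On the 6 h array the chaperone gene Serpinh1 was further above vehicle than most collagen genes, and a difference in timing was not tested. Its probe set (94817_at) read 5057 on vehicle and 5031, 5629, 8220, 9941, 8717 and 8466 from 1 to 24 h. Vehicle, 1 and 3 h lay close together and the other arrays were all higher, with the largest step between 3 and 6 h (0.55 on the log2 scale) and the peak at 12 h, 1.97-fold above vehicle. At 6 h only Col6a2, at 0.77, exceeded its log2 ratio of 0.70.

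Lox did not share the course of the other 9. Its brighter probe set (160095_at) read 586 on vehicle and 613, 337, 445, 633, 451 and 555 from 1 to 24 h, lowest at 3 h, where the log2 ratio was -0.80. Its late arrays lay on both sides of vehicle, and their mean differed from it by -0.11 ± 0.36. The dimmer Lox probe set (161177_f_at) was over the floor on vehicle (158) and at 1 h (279) and under it on the other 5 arrays, so it gives a bound for those. Over the 7 arrays the log2 signals of Lox correlated with those of the other 9 genes at a Pearson r of -0.24 to 0.41 (median 0.02). Among the other 9 genes the 36 pairs lay between 0.54 and 0.97 (median 0.80). These correlations share the same 7 arrays and describe them only.

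The probe sets of one gene agreed in part. Over the 6 genes with several probe sets and the 6 times, all probe sets of a gene had the same sign against vehicle in 26 of 36 cases, and in 13 of 18 at the late times. Col1a2 was the weakest, with 1 of 6 times, and Col5a1 agreed at all 6. Col3a1, Col6a1 and Lox agreed at 5 of 6, and Col1a1 at 4 of 6. The widest gap between probe sets of a gene was 1.38 on the log2 scale, for Col1a2 at 24 h. Only the second Col1a2 probe set carries the maker's suffix r. The second probe sets of Col3a1, Col6a1 and Lox carry another suffix, f, and the second Col1a1 probe set has the plain one. Whether the suffix goes with agreement was not tested.

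At least 2-fold from vehicle, with the higher signal at least 291.8, were 3, 5 and 4 of the 17 probe sets on the 12, 18 and 24 h arrays, all higher. Of all 8421 probe sets above the filter, 1.75%, 1.35% and 0.938% were at least 2-fold higher on those arrays. At 1, 3 and 6 h 0 of the 17 were 2-fold higher, where 0.546%, 1.18% and 1.25% of all probe sets were, and 0 of the 17 were 2-fold lower at any time, where 0.582%, 0.831%, 1.2%, 1.39%, 1.06% and 0.986% of all probe sets were from 1 to 24 h. By brightest probe set, the genes over 2-fold at 12, 18 and 24 h were Col1a1 and Col3a1 each time. On 10 of the 17 probe sets every late array lay above every early array, against 8.18% of all probe sets, and 0 of the 17 had the reverse (6.61% of all). The same 10 probe sets also had their late arrays above vehicle, as did 6.64% of all.

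No member passed a test across all probe sets at the settings used here. With the DHT arrays joined into early and late and limma fitted over all 7 arrays, 0 of 17 probe sets passed for late against vehicle at a Benjamini-Hochberg adjusted p of 0.05, where 0% of the 8421 probe sets passed as higher and 0.309% as lower. At an unadjusted p under 0.05 10 of the 17 were higher and 0 lower, against 5.53% and 6.19% of all probe sets. The lowest adjusted p in limma was that of the brightest Col3a1 probe set (0.0800, rank 35 of 8421; 0.0483 to 0.204 over the alternatives, with 0.0483 where the floor was set at the 60th percentile), followed by Col5a2 (adjusted p = 0.134; 0.0540 to 0.306 over the alternatives). Col1a1 had an adjusted p of 0.252 and Col1a2 one of 0.170 in limma. The median difference of the 10 genes was 0.78, against 0.00 for all 6326 genes. The spread in these fits is that between arrays of different times, and vehicle enters as 1 array taken to have the same spread.

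The contrast of late with early arrays does not use the vehicle values. There 0 of 17 passed in limma, as did 0% of all probe sets in either direction. At an unadjusted p under 0.05 9 were higher and 0 lower, against 5.76% and 4.49% of all. The lowest adjusted p was 0.174, for Col5a2, and the median difference of the 10 genes was 0.56 (0.00 for all genes). For a trend over the hours within the 6 DHT arrays 0 of 17 passed in limma, as did 0% of all, and at an unadjusted p under 0.05 8 were higher and 0 lower, against 4.7% and 3.84% of all. The lowest adjusted p was 0.306, for Col1a2, and 0.306 was also the lowest over all 8421. For early against vehicle 0 of 17 passed in limma (0% of all as higher, 0.273% as lower). At an unadjusted p under 0.05 0 of the 17 were higher or lower (2.49% of all higher, 3.84% lower), and the median difference of the 10 genes was 0.17.

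**Figure D3:**
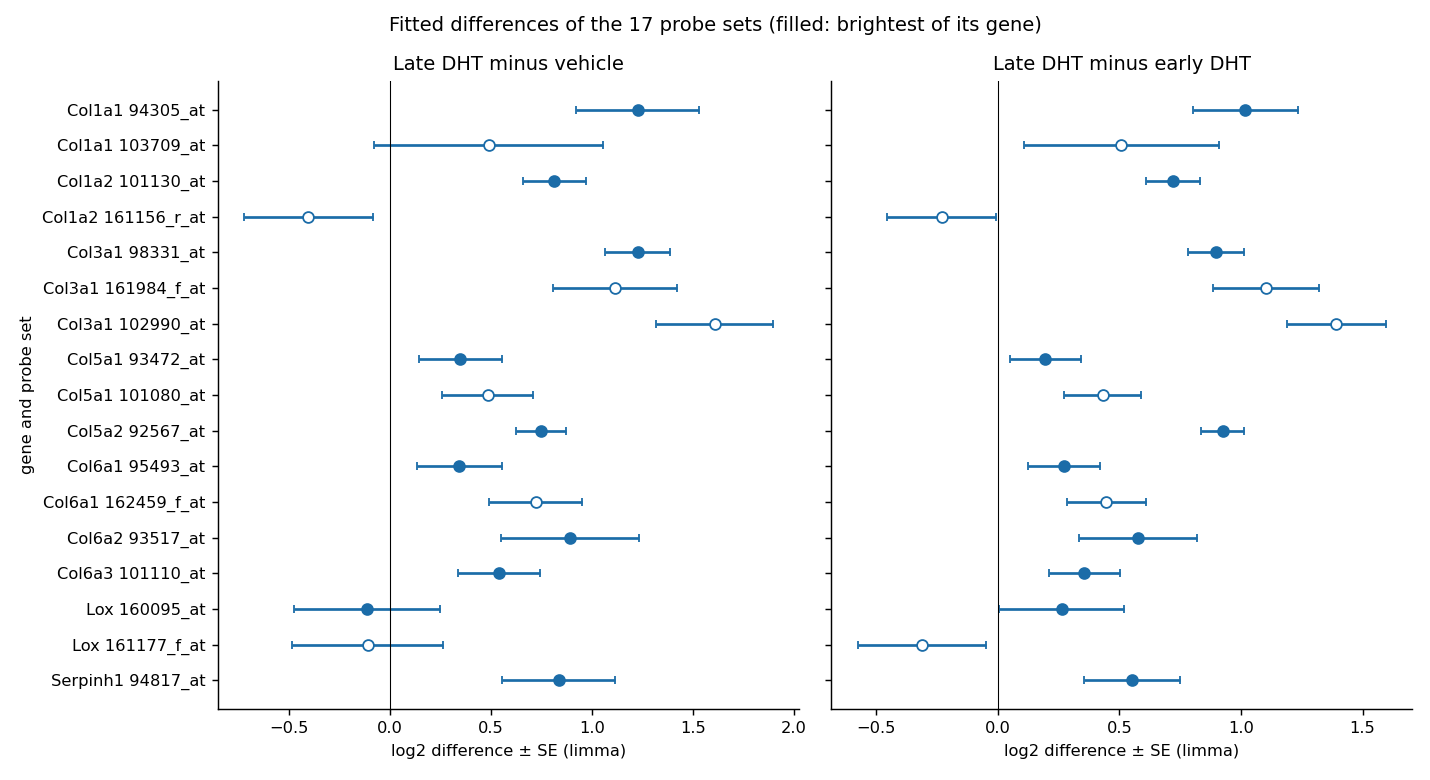
Log2 differences with their standard errors from limma for the 17 probe sets, late DHT (12, 18 and 24 h) minus vehicle at the left and late DHT minus early DHT (1, 3 and 6 h) at the right. Filled points are the brightest probe set of a gene. The 3 Col3a1 probe sets lie between 1.11 and 1.61 at the left, the second Col1a2 probe set lies below 0 in both, and 0 of the 17 passed the adjusted threshold.

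Other genes of the pathway were counted as lists. Of 29 genes for modifying, folding and processing collagen 16 were above the filter, and their median log2 ratio was 0.13, 0.02, 0.14, 0.45, 0.19 and 0.21 from 1 to 24 h. Above vehicle at 12, 18 and 24 h were 11, 12 and 11 of the 16. None of them passed in limma in any contrast. For late against vehicle 5 were higher and 0 lower at an unadjusted p under 0.05 in limma, against 5.53% and 6.19% of all probe sets. Sparc, which encodes a collagen-binding matrix protein, was at log2 ratios of 1.11, 1.08 and 1.24 at 12, 18 and 24 h. Its adjusted p in limma for late against vehicle was 0.151. Pcolce, an enhancer of procollagen cleavage, was at 0.47, 0.78 and 0.44 on those arrays. P4hb, another gene of the list, ran the other way and was below vehicle at all 6 times. Its log2 ratios were -0.23, -0.28, -0.75, -0.98, -0.02 and -0.58 from 1 to 24 h. The late difference of P4hb from vehicle was -0.53 (adjusted p = 0.634 in limma). Its brightest probe set carries the maker's suffix r. Most like the mean course of the 8 collagen genes over the 7 arrays, among 751 genes with a span of at least 1 on the log2 scale, was Sparc (r = 0.98), ahead of Acta1, Kif20a, Nme2, Penk and Bzw2 (0.97 to 0.94). Kif20a was under the floor on vehicle (78.8) and at or under it at 1 and 3 h, so the floor sets part of its course.

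Genes of ER protein folding and ER stress were listed beside Serpinh1, which works in that compartment, and 15 of 18 were above the filter. The 15 include 4 genes of stress transcription factors, Xbp1, Ddit3, Atf4 and Atf6, so the list is not one of chaperones alone. Its median was 0.12, 0.53, 0.80, 1.02, 0.35 and 0.27 from 1 to 24 h, highest at 12 h like Serpinh1, but down to 0.27 at 24 h, when Serpinh1 was at 0.74. None of the 15 passed in limma in any contrast. Late against vehicle 1 was higher and 1 lower at an unadjusted p under 0.05 in limma, against 5.53% and 6.19% of all probe sets. Pdia3, a disulfide isomerase, was at 1.32, 1.01 and 1.09 at 12, 18 and 24 h, with an adjusted p of 0.0792 in limma for late against vehicle. Hspa5, the main ER chaperone of the HSP70 family, was at 1.13 and 1.23 at 6 and 12 h and at 0.39 at 24 h. Of its co-chaperones, Dnajb11 had 1.16 on the 6 h array and 0.33 on the 24 h array, and Dnajc3 had 1.31 and 0.42 on those arrays. Dnajb9, another co-chaperone, had another course, with -0.56 on the 3 h array, 0.11 on the 6 h array, 0.41 on the 12 h array and -0.14 on the 18 h array. Creld2, induced by ER stress, had 1.19, 1.21 and -0.18 on the 6, 12 and 24 h arrays, and Manf, a secreted protein of the ER stress response, had 1.66, 1.43 and 0.32. The genes most like Serpinh1 over the 7 arrays were Bzw2 (r = 0.99), Kat2a, Map3k6, Fkbp11, Rab26os and Sh3bp1 (0.98 to 0.96). Of these, Map3k6 and Rab26os were under the floor on vehicle, at 89.4 and 99.6. Kat2a (146.1) and Fkbp11 (153.2) were just over it there and at or under it at 1 and 3 h. The floor therefore sets part of these 4 courses. The genes most like Lox were Jchain (r = 0.93), Il15ra, Scpep1, Prdm1, Slc25a47 and Fgfr1op2 (0.92 to 0.87).

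Matrix genes outside these families did not share the late level as lists. The 14 genes above the filter for proteins that bind fibrils had medians between -0.16 and -0.02, and 5 to 7 of them were above vehicle at each time. Tnxb, which encodes a tenascin that spaces fibrils, was at -1.39 and -1.50 at 12 and 18 h and -0.18 at 24 h. Fbln1, a fibulin gene, was at -0.43, -0.53 and -0.42 at 12, 18 and 24 h. The 8 other collagen genes above the filter had medians of -0.22 to -0.08, with 6 more under the floor on all arrays. Col14a1, a fibril-associated collagen gene, was below vehicle at all 6 times, at -1.07 at 6 h. Col9a1, another fibril-associated chain, was under the floor on vehicle, so its log2 ratios of 2.17, 1.75, 1.84, 1.98 and 1.10 from 3 to 24 h are lower bounds. None of the 14 and none of the 8 passed in limma in any contrast. Late against vehicle 0 were higher and 3 lower at an unadjusted p under 0.05 in limma (1 of the 14 and 2 of the 8). Of all probe sets 5.53% were higher and 6.19% lower there.

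**Figure D4:**
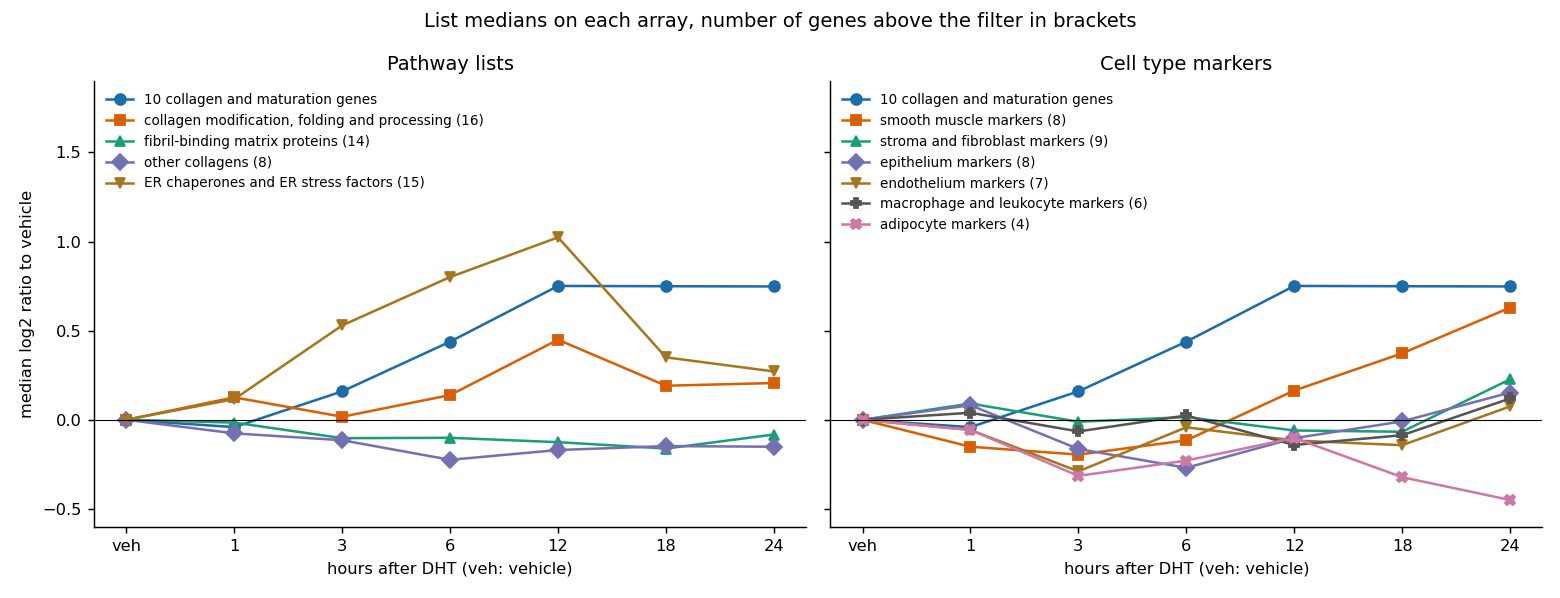
Median log2 ratio to vehicle of the 10 genes and of other gene lists on each array, pathway lists at the left and cell type markers at the right, with the number of genes above the filter in brackets. Times are spaced evenly and each point rests on 1 array. The 10 genes stay at 0.75 from 12 h on, the list of ER chaperones and ER stress factors is at 1.02 at 12 h and 0.27 at 24 h, and the smooth muscle markers reach 0.63 at 24 h.

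Markers of the cells that could hold these transcripts were read beside the collagen genes, with summed signals taken over the markers above the filter. Smooth muscle markers, 8 of 8 above the filter, had medians of -0.15, -0.20, -0.12, 0.16, 0.37 and 0.63 from 1 to 24 h, and their summed signal lay between 37609 and 65060 on the DHT arrays, against 41390 on vehicle. All 8 were above vehicle at 12 and 24 h and 7 at 18 h. None of the 8 passed in limma in any contrast. At an unadjusted p under 0.05 in limma all 8 were higher for late against early (5.76% of all probe sets) and for the trend over hours (4.7%). For late against vehicle 3 were higher (5.53% of all probe sets). Actg2, a smooth muscle actin gene, differed most, by 1.63 for late against early (adjusted p = 0.174 in limma), and Cnn1, which encodes calponin, differed by 0.76. Stroma and fibroblast markers, 9 of 10 above the filter with Vim under the floor on every array, had medians between -0.07 and 0.23 and a summed signal of 31461 to 42106, against 37354 on vehicle, lowest at 12 h. Its members ran in both directions. Hoxa10 and Hoxa11, homeobox genes of the uterus, were above vehicle at all 6 times, by 0.61 and 0.71 on average on the late arrays. Pdgfra, Pdgfrb and Thy1 had late differences from vehicle of -0.40, -0.51 and -0.46. None of the 9 passed in limma in any contrast. Late against vehicle 1 was higher and 2 lower at an unadjusted p under 0.05 in limma, against 5.53% and 6.19% of all probe sets. Adipocyte markers (4 of 4 on the array above the filter) summed to 2827 to 4581, against 4006 on vehicle, with medians of -0.06, -0.31, -0.23, -0.10, -0.32 and -0.45 from 1 to 24 h. Its members ran in opposite directions: Adipoq, which encodes adiponectin, was below vehicle at all 6 times, down to -0.97 at 24 h, while Lep, which encodes leptin, was above vehicle at all 6, with 1.63, 0.78, 1.31, 0.97, 0.51 and 1.07. The medians of epithelial, endothelial and leukocyte markers lay between -0.29 and 0.15, and those of the 2 mesothelial markers above the filter between -0.57 and -0.33. For the 2 red blood cell markers above the filter they lay between -0.10 and 0.41. Of the 7 skeletal muscle markers 5 were under the floor everywhere and Acta1 and Ckm were not. Acta1, an actin gene of striated muscle, had log2 ratios of 1.76, 2.85, 3.04 and 2.79 from 6 to 24 h, while Ckm, the muscle creatine kinase gene, was below vehicle at 4 of the 6 times. The part of these shifts in the collagen signals was not tested. The ratio of 3 prime to 5 prime control signals, a measure of RNA quality, was 0.828 to 0.888 for Gapdh and 1.03 to 1.20 for beta-actin over the 7 arrays.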

How the data were processed

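The deposited values are MAS5 signal intensity on a linear scale, as the submitters' processing notes name it; a version is not given in the sources used here. Every array had a trimmed mean of 500.2, and this scale was kept. Of 12488 probe sets 66 are the maker's controls. Gene names came from the array's annotation table, updated by gene ID: 10833 probe sets named 1 gene, 396 several and 1193 none. Array titles were followed where the design text differs (0.5 h there, 18 h in the titles).

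The floor was the 40th percentile of the whole table (145.9); lower signals were set to it before log2, and the 8421 probe sets with a mean above the floor were tested. A gene's brightest probe set represents it. limma 3.58.1 in R 4.3.3 compared late DHT, early DHT and vehicle over all 7 arrays with a variance trend (4 residual degrees of freedom, prior 1.69), and fitted a slope over hours to the 6 DHT arrays. Two-sided p-values were adjusted over 8421 probe sets (Benjamini-Hochberg). The fits were tested on simulated data with independent noise of equal spread for all probe sets. The spread of the real signals differed between probe sets, so that run does not measure the error rate here. P-values measure only the spread between these arrays, and the number of arrays limits precision. Single times were described without a test.

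All probe sets of the members are given. Other genes of the pathway lists are named if at least 2-fold from vehicle at 2 or more times, or among the 2 largest late differences of their list. Markers are summarized as whole lists. Single markers, Dnajb9, P4hb, Nfya and Nfyc were named after their values were seen. The 6 genes most alike by Pearson r are named for 3 courses. Members and lists were chosen with earlier results of these data known. Alternatives changed the floor, scaling, filter, variance model, fold threshold, vehicle reference, probe set and arrays.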

Additional observations from a re-analysis of the deposited data

How the results depend on the processing

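Single arrays of pooled RNA limit all results, and 1 vehicle array carries every ratio. Of the 761 recomputed differences of the 17 probe sets, 748 kept their direction and their side of the threshold. Col3a1 passed for late against vehicle with the floor at the 60th percentile (adjusted p = 0.0483, difference 1.23; 0.0483 to 0.204 over the alternatives), where 5782 probe sets were tested, so 1 member passed there. Leaving out each array in turn gave 0 members passing in every contrast. Directions turned for small differences, given here as ranges over the arrays left out. For early against vehicle these were -0.17 to 0.13 (second Col1a1; turned without 6 h), -0.29 to 0.032 (second Col1a2; 6 h), -0.11 to 0.24 (second Col3a1; 1 h, and -0.099 without 6 h), -0.0075 to 0.24 (brighter Col5a1; 6 h), -0.093 to 0.17 (second Col5a1; 6 h), -0.019 to 0.19 (brighter Col6a1; 3 h) and -0.11 to 0.36 (second Lox; 1 h). For the brighter Lox they were -0.23 to 0.017 (late against vehicle; 18 h) and -0.025 to 0.15 (trend; 3 h). With the floor at the 20th percentile the second Lox probe set gave -0.69 (early against vehicle) and 0.065 (late against early). The cause was not tested.

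Over all probe sets, 26 passed in limma for late against vehicle, 21 of them at the floor on all late arrays, and 23 for early against vehicle. With the floor at the 60th percentile 42 passed late; with quantile normalization 15 late and 14 early; without the filter 137 and 121; without the variance trend 0 and 0. Leaving out 1 array gave 0 to 73 late (0 without 12 or 18 h, 10 without 6 h, 73 without 3 h) and 8 to 55 early (8 without 6 h, 11 without 12 h, 12 without 18 h, 55 without 3 h). Late against early gave 0 to 1, with 1 without the 6 h array. At 1.5-fold, 1 of 10 genes was lower at 3 h, in place of 0. At that threshold 3, 7, 6 and 6 were higher at 6, 12, 18 and 24 h, in place of 0, 2, 2 and 2. The share of all probe sets at 1.5-fold is not given here, so these counts have no background to be read against. With the second probe set of each gene 0 were 2-fold higher at 12 h and 1 at 24 h. The probe set agreement stayed within 1.5 times its count. No paired analysis was possible because each group has 1 array.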

Other observations

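Genes that act on collagen from outside these families were read as lists. Of 18 genes for collagen receptors and breakdown, 11 were above the filter, with medians between -0.27 and 0.02. None passed in limma in any contrast. Late against vehicle 2 were higher and 1 lower at an unadjusted p under 0.05 in limma, against 5.53% and 6.19% of all probe sets. Mmp11, a stromal metalloproteinase gene, was at log2 ratios to vehicle of -1.31, -1.37, -1.30 and -1.06 at 6, 12, 18 and 24 h (adjusted p = 0.364 in limma for late against vehicle). Timp1, an inhibitor of such enzymes, was at 0.94, 0.63 and 0.73 at 12, 18 and 24 h.

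Of 20 regulators of collagen genes 12 were above the filter, with medians between -0.09 and 0.16 and none passing in limma in any contrast. Late against vehicle 1 was higher and 2 lower at an unadjusted p under 0.05 in limma, against 5.53% and 6.19% of all probe sets. Ccn2, a growth factor of the matrix, was below vehicle at all 6 times, at -1.27 and -1.55 at 12 and 18 h, when Col1a1 was at 1.01 and 1.37. Nfyb, a subunit of the CCAAT-binding factor, was above vehicle at all 6 times, between 0.62 and 0.97. The genes of its other subunits had other courses. Nfya was at 0.20, -0.56 and -0.48 at 12, 18 and 24 h, and Nfyc lay between -0.05 and 0.21 over the 6 times. Tgfb1, Tgfb2, Tgfbr1, Tgfbr2 and Smad3 were under the floor on all arrays.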
